A study of Mus musculus with 4 samples.

Results

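TRBJ1 beta chains are the T cell receptor beta chains whose joining segment comes from the upstream J cluster of the mouse Tcrb locus. They were taken as every deposited TRB contig with a J gene name that begins with TRBJ1-, which gave 188 of 713 TRB contigs, in 181 of 677 cells and 147 of 470 clonotypes with a beta chain. Each library contributed 94 contigs, which came from 90 cells and 69 clonotypes in WT and from 91 cells and 78 clonotypes in p53 KO. The names covered TRBJ1-1 to TRBJ1-5 and also TRBJ1-6, so values are given without TRBJ1-6 where the total turns on it. No contig carried TRBJ1-7. A clonotype is the deposited clonotype identifier, and it counts for a J gene when any of its TRB contigs carries that gene.

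Both libraries were made from whole tumours of the MC38 line, a mouse colon carcinoma, grown in C57BL/6J mice that received anti-PD-1, a checkpoint antibody directed at the PD-1 receptor on T cells. The WT library came from tumours of the parental line, and the p53 KO library from MC38 cells in which p53 had been disrupted with CRISPR-Cas9. The genotype is thus that of the inoculated tumour cells, and nothing in the labels gives the sequenced T cells an altered genotype. Anti-PD-1 was common to both groups. The ages and the number of mice are not given in the sources used here. With 1 TCR library per genotype there are no replicates and no test between genotypes was made. Intervals are exact 95% binomial (Clopper-Pearson) intervals, or Newcombe intervals for a difference, and cover counting error only, since cells of a clone are not independent.

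The beta chain of a T cell receptor is assembled in the thymus by joining a D to a J segment and then a V segment to the DJ join. The mouse locus holds a pair of D-J-C clusters, with TRBD1, the TRBJ1 genes and TRBC1 upstream and TRBD2, the TRBJ2 genes and TRBC2 downstream. TRBD1 can join to either J cluster, whereas TRBD2 lies after the TRBJ1 genes. At each join, bases are removed from the segment ends and others are added without a template. The resulting CDR3 loop runs from the conserved cysteine of V to the phenylalanine of J and makes most of the contact with the peptide.

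The J segments are shown first, since the trimming values below count bases against them. RefSeq (GRCm38.p6, the mm10 build) placed TRBJ1-1 on chromosome 6 at 41533864 to 41533911, TRBJ1-2 at 41534001 to 41534048, and TRBJ1-3 at 41534323 to 41534372. TRBJ1-4 lay at 41534811 to 41534861, TRBJ1-5 at 41535084 to 41535133, and TRBJ1-6 at 41535554 to 41535606. TRBD1 lay before them at 41533201 to 41533212, TRBC1 after them at 41538219 to 41539665, and TRBD2 further on at 41542163 to 41542176. Each sequence is the consensus of the deposited CDR3 and framework sequences of that gene, 5′ to 3′. Capitals mark the part that belongs to the CDR3 and lower case the start of framework 4.
TRBJ1-1: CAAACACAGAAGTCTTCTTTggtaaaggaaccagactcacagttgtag
TRBJ1-2: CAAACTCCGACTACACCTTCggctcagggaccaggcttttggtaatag
TRBJ1-3: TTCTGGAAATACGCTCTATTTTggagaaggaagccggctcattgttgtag
TRBJ1-4: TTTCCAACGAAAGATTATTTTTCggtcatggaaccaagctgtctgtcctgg
TRBJ1-5: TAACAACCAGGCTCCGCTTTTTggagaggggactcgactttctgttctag
TRBJ1-6: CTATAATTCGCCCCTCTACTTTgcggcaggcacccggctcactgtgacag
In frame, the untrimmed CDR3 ends were NTEVFF for TRBJ1-1, NSDYTF for TRBJ1-2, SGNTLYF for TRBJ1-3, SNERLFF for TRBJ1-4 and NNQAPLF for TRBJ1-5. The consensus reached the full RefSeq length in TRBJ1-1 to TRBJ1-5. At its 5′ end it rested on 5 distinct CDR3 sequences in TRBJ1-4 and 4 in TRBJ1-5, the same ones later counted as untrimmed. Built from WT alone, it matched 20 of 23 bases of TRBJ1-4 and 21 of 22 of TRBJ1-5. In TRBJ1-6 it resolved 22 of 25 CDR3 bases, so losses from TRBJ1-6 are minimum values and YNSPLYF is the end of its resolved part only. The framework 4 of TRBJ1-6 began AAGTRLTVT, with alanine in the place where the other 11 J genes had the glycine that opens the conserved motif after the CDR3 phenylalanine.

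TRBJ1 chains were the smaller share of the beta repertoire in both libraries. They were carried by 69 of 240 clonotypes in WT (28.8%, 23.1 to 34.9) and by 78 of 230 in p53 KO (33.9%, 27.8 to 40.4). The p53 KO minus WT difference was 5.16 percentage points, with an interval from -3.21 to 13.5. Counted by cells, TRBJ1 took 27.6% of the WT library (90 of 326, 22.8 to 32.8). In p53 KO it took 25.9% (91 of 351, 21.4 to 30.8), and the difference was -1.68 points (-8.35 to 4.97). The direction between libraries thus depended on the unit, and both intervals included 0. Without TRBJ1-6, the share of clonotypes was 25.8% in WT and 29.1% in p53 KO, and the share of cells 24.8% and 22.2%.

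TRBJ1-1 was the most used gene of the cluster in both libraries. It was found in 23 WT clonotypes (9.58%, 6.17 to 14.03) and 26 p53 KO clonotypes (11.3%, 7.52 to 16.1), which was 33.3% of the TRBJ1 clonotypes in each. TRBJ1-4 followed with 13 clonotypes in WT (5.42%) and 15 in p53 KO (6.52%). TRBJ1-2 was in 12 and 9 clonotypes, TRBJ1-3 in 8 and 11, TRBJ1-5 in 9 and 9, and TRBJ1-6 in 7 and 11. The intervals of all 5 neighbouring pairs in this order overlapped in each library. Those of TRBJ1-1 stood clear of TRBJ1-6 in WT, and of TRBJ1-2 and TRBJ1-5 in p53 KO. By distinct beta chains, 0 of 15 pairs of genes stood clear in WT, and in p53 KO TRBJ1-1 stood clear of TRBJ1-2, TRBJ1-5 and TRBJ1-6. By cells, TRBJ1-1 stood clear of all 5 other genes of the cluster in WT and of all but TRBJ1-4 in p53 KO. These cell intervals count cells of a clone as independent. A single clone held 7 of the 34 TRBJ1-1 cells in WT and 5 of the 32 in p53 KO. For none of the 6 genes did the interval of the difference between libraries leave out 0.

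Among the 12 J genes seen, TRBJ1-1 ranked 7th by clonotypes in WT and 3rd in p53 KO. The other TRBJ1 genes took ranks 8 to 12 in WT. In p53 KO, TRBJ1-4 was 7th and the remaining TRBJ1 genes took ranks 9 to 11, below TRBJ2-2 at 8th. By distinct beta chains (V gene, J gene and CDR3 nucleotide sequence), the TRBJ1 share was 29.2% in WT and 32.8% in p53 KO.

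**Figure D1:**
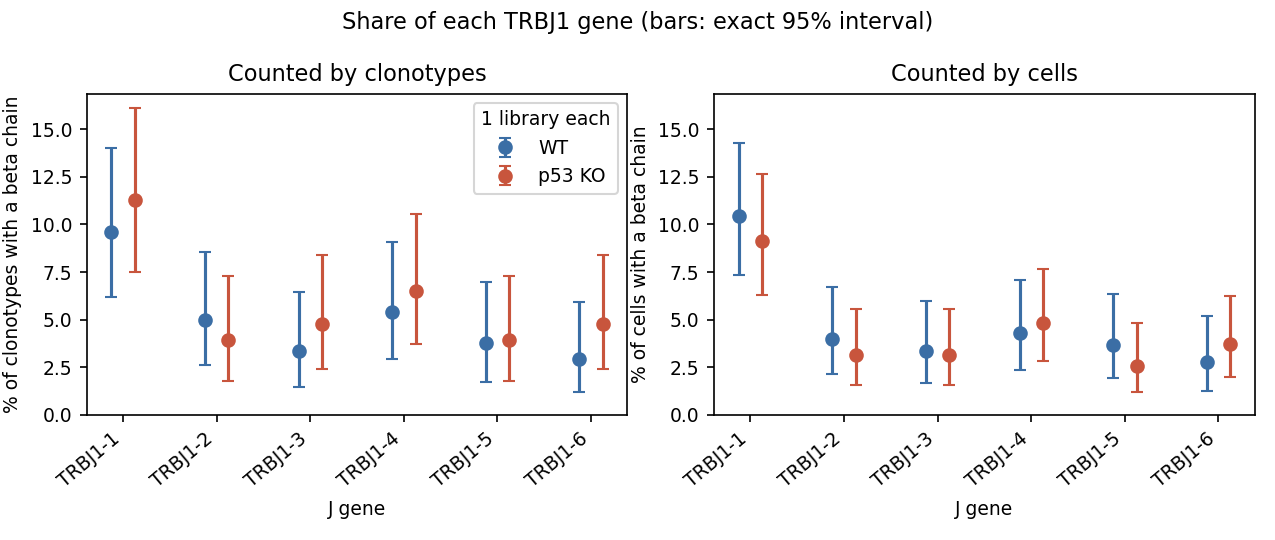
Share of each TRBJ1 gene among clonotypes (left) and cells (right) with a beta chain, in percent, for the WT and the p53 KO library, with exact 95% intervals. TRBJ1-1 lies highest in every series of points, at 9.58% and 11.3% of clonotypes.

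Every D or C gene called on a TRBJ1 contig came from the upstream cluster. All but 1 TRBJ1 contig in each library (93 of 94 and 93 of 94) carried TRBC1, the constant region of the same cluster, and none carried TRBC2. The contig without a C gene was TRBJ1-1 in both libraries, with 2 UMIs in WT and 1 UMI in p53 KO. TRBD1 was annotated in 18 of 69 WT clonotypes and in 19 of 78 p53 KO clonotypes with TRBJ1. TRBD2 was annotated in none of them, which allows a share of up to 4.35% in WT and 3.85% in p53 KO (3 counts of the total). The exact upper limits were 5.21% and 4.62%. These limits are for annotated calls among all TRBJ1 clonotypes, and a contig without a D call could not show TRBD2. Among clonotypes with other J genes, TRBD2 was given in 20 of 175 in WT and 19 of 163 in p53 KO. Most TRBJ1 clonotypes had a contig with no D call (75.4% in WT and 78.2% in p53 KO), so the D segment behind most joins is not known.

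The CDR3 of TRBJ1 chains was slightly shorter on average than that of other J genes in both libraries. Its length was 13.5 ± 1.45 residues in WT (SD over 73 chains, each distinct CDR3 of a clonotype counted once) and 13.9 ± 1.42 in p53 KO (82 chains). Chains with other J genes measured 13.97 ± 1.58 (180 chains) and 14.1 ± 1.38 (170 chains). The differences, -0.42 and -0.19 residues, were smaller than the SD between chains. Among TRBJ1 chains, 53.4% in WT and 59.8% in p53 KO had 14 or more residues, against 65.6% and 74.1% with other J genes. Within the cluster, TRBJ1-1 had the shortest mean CDR3 in both libraries, 12.7 ± 1.63 residues in WT and 13.3 ± 1.20 in p53 KO. TRBJ1-6 had the longest, 14.3 ± 0.49 and 15.2 ± 1.33. The shortest TRBJ1 loop had 9 residues (WT) and the longest 17 (both libraries).

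Trimming was counted as the J bases missing at the 5′ end, from the exact match of each CDR3 to the consensus. The first added base can match J by chance, which makes a J segment appear longer. Over the 5 genes read in full, TRBJ1 chains lost 2.95 ± 2.36 bases in WT (66 chains) and 2.61 ± 2.36 in p53 KO (71 chains). Chains with the fully read other J genes, TRBJ2-4, TRBJ2-5 and TRBJ2-7, lost 3.29 ± 2.43 (102 chains) and 2.87 ± 2.35 (101 chains). These differences were also small beside the SD between chains.

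TRBJ1-3 was untrimmed in 5 of 8 WT chains and 6 of 11 p53 KO chains, and lost 1.75 and 1.55 bases on average. TRBJ1-4 was untrimmed in 2 of 13 and 3 of 16 chains and lost 3.69 and 3.31 bases. The untrimmed shares over both libraries were 57.9% for TRBJ1-3 (11 of 19, 33.5 to 79.7) and 17.2% for TRBJ1-4 (5 of 29, 5.85 to 35.8), and the intervals overlapped. TRBJ1-1 was whole in 5 of 24 WT chains and 7 of 26 p53 KO chains, with mean losses of 3.50 and 2.81 bases. TRBJ1-2 and TRBJ1-5 were less alike between libraries, with mean losses of 1.5 and 2.56 bases for TRBJ1-2 and of 3.44 and 2.11 for TRBJ1-5. TRBJ1-6 lost at least 1.00 and 1.09 bases. The largest loss was 9 of 20 bases, in a TRBJ1-1 chain of p53 KO.

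**Figure D2:**
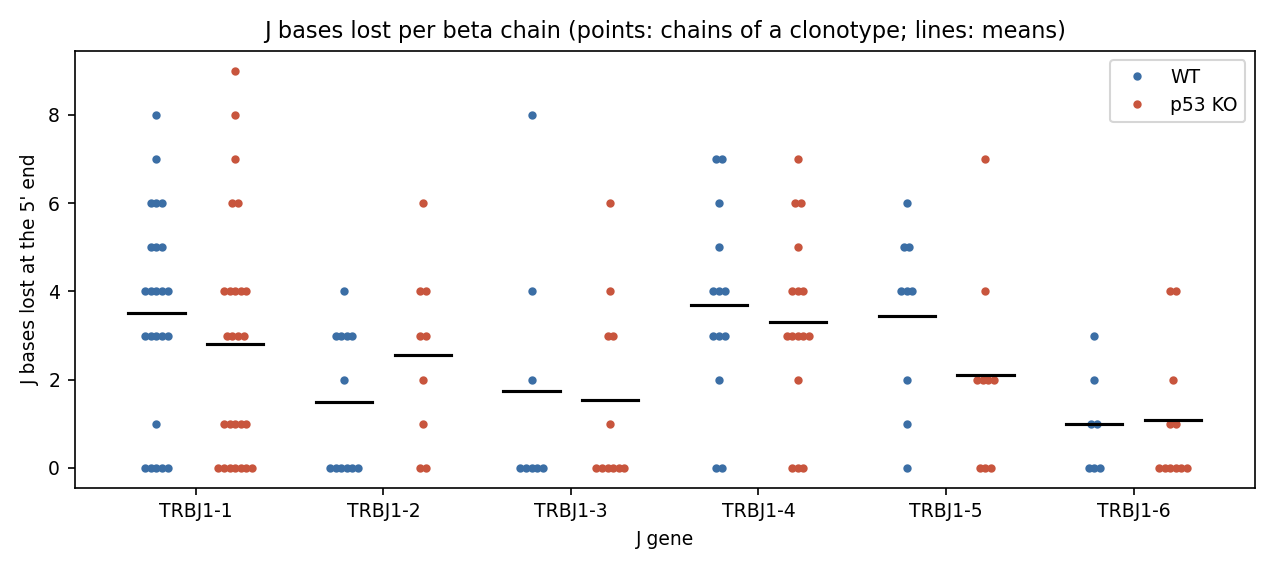
J bases lost at the 5′ end of each TRBJ1 gene, 1 point per beta chain of a clonotype, with the mean as a line, for WT and p53 KO. TRBJ1-3 chains gather at 0 bases lost, while TRBJ1-4 chains centre on means of 3.69 and 3.31 bases.

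The residues that J left in the loop mirrored these losses. Of the 50 TRBJ1-1 chains in both libraries together, 18 ended in the whole NTEVFF. GTEVFF ended 9 chains, DTEVFF 5, and GAEVFF and HTEVFF 3 each. SGNTLYF of TRBJ1-3 was whole in 12 of 19 chains. YNSPLYF, the resolved end of TRBJ1-6, was kept in 13 of 18. TRBJ1-4 ended in the whole SNERLFF in 7 of 29 chains, and GNERLFF followed with 4. TRBJ1-2 ended in NSDYTF in 11 of 21 chains and in DSDYTF in 4. TRBJ1-5 ended in NNQAPLF in 5 of 18 and in DNQAPLF in 3. On average 5.71 J residues remained in WT and 5.89 in p53 KO, against 5.71 and 5.71 with other J genes. Over J genes read in full, TRBJ1 chains kept 5.61 and 5.76 residues, and other J chains 5.39 and 5.50.

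The part of the CDR3 before J (V end, D and added bases) was shorter with TRBJ1 than with other J genes. J bases that the consensus left unresolved also count in this part. They number 3 in TRBJ1-6, 1 in TRBJ2-1, 2 in TRBJ2-2 and 1 in TRBJ2-3. The part before J measured 22.2 ± 3.91 bases in WT and 22.8 ± 3.62 in p53 KO, against 24.1 ± 4.30 and 24.6 ± 3.92 with other J genes. The differences were -1.84 bases in WT and -1.72 in p53 KO, each below 1 SD between chains. Over J genes read in full they were -1.57 and -1.96 bases. With the libraries combined, the means of all 6 TRBJ1 genes (21.8 to 23.6 bases) lay below those of all 6 TRBJ2 genes (23.9 to 25.2 bases). Within each library alone, 5 of 6 TRBJ1 means lay below every TRBJ2 mean, the exceptions being TRBJ1-2 in WT (23.8 bases) and TRBJ1-6 in p53 KO (24.6 bases).

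The D call moved with this length. TRBJ1 chains annotated with TRBD1 had 24.1 ± 3.04 bases before J in WT (18 chains) and 25.4 ± 2.89 in p53 KO (19 chains). Other J chains annotated with TRBD1 had 25.1 ± 3.55 (24 chains) and 25 ± 3.31 (16 chains), so the direction between TRBJ1 and other J genes differed between libraries once TRBD1 was given in both. Other J chains annotated with TRBD2, which TRBJ1 chains did not carry, had 28.8 ± 3.17 (20 chains) and 27.5 ± 2.86 (19 chains). Chains with no D call had 21.6 ± 4.002 bases (TRBJ1, 55 chains) and 23.2 ± 4.08 (other J, 136 chains) in WT. In p53 KO they had 22.1 ± 3.47 (63 chains) and 24.1 ± 3.96 (135 chains). The part of the D segment in the shorter TRBJ1 junctions was not tested.

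**Figure D3:**
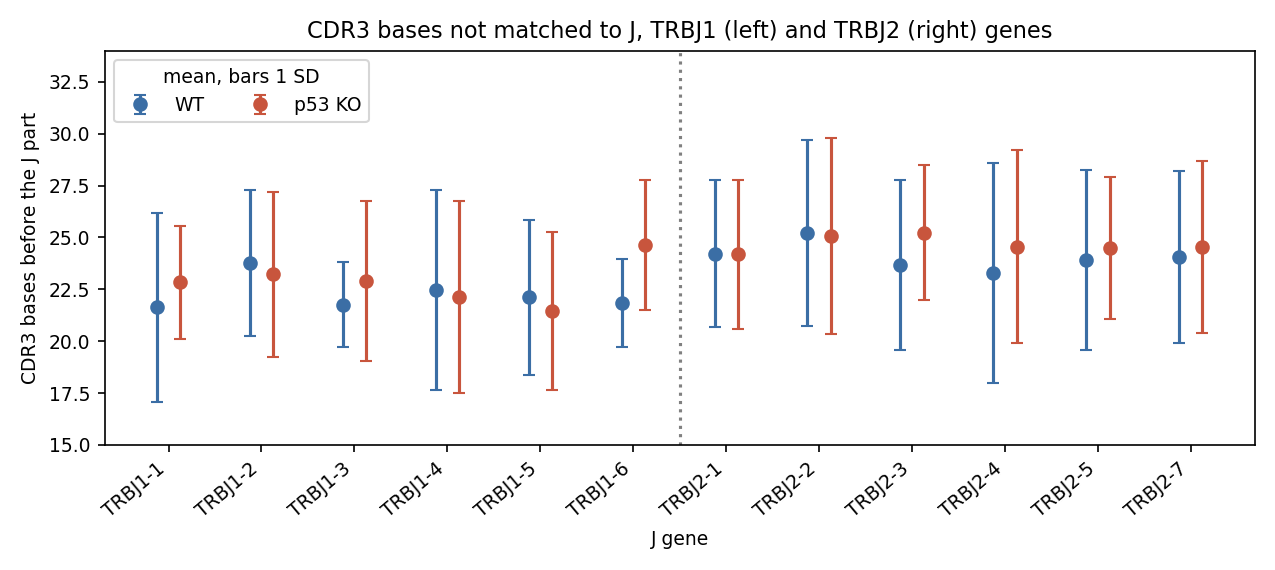
CDR3 bases before the J part, mean and 1 SD over beta chains, for each TRBJ1 gene (left of the dotted line) and each TRBJ2 gene (right), in WT and p53 KO. TRBJ1 means lie between 21.4 and 24.6 bases and TRBJ2 means between 23.3 and 25.2 bases, with wide overlap of single chains.

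TRBJ1 chains were paired with 20 of 22 TRBV genes in WT and 18 of 22 in p53 KO. TRBV1, the V gene furthest upstream in the locus of those named here (chromosome 6, 40891296 to 40891885), and TRBV3 (41048394 to 41048824) led in WT with 11 of 69 TRBJ1 clonotypes each (15.9%). In p53 KO they were in 6 and 7 of 78 (7.69% and 8.97%). The entry TRBV12-2+TRBV13-2, which joins a pair of V genes under 1 name in the files, was in 8 and 6 TRBJ1 clonotypes. TRBV13-1 (41116036 to 41116468) was in 7 and 6, and TRBV26 (41227525 to 41227913) in 6 and 3. By clonotypes, the intervals of the TRBJ1 and other J shares of these 5 entries overlapped in both libraries, as did those of the WT and p53 KO TRBJ1 shares. By cells in WT, TRBV1 took 21.1% of TRBJ1 cells (19 of 90, 13.2 to 31.0) and 8.30% of cells with other J genes (5.14 to 12.5). Of those 19 cells, 7 belonged to 1 clone. TRBV26 took 10.0% of TRBJ1 cells in WT (9 of 90, 4.68 to 18.1) and 1.66% of the others (0.454 to 4.19). Those 9 cells came from 6 clonotypes. By clonotypes, 0 of 22 V genes had TRBJ1 and other J intervals apart in either library. In p53 KO, TRBV1 was in 6.59% of TRBJ1 cells and 14.7% of the others, and TRBV26 in 3.30% and 4.04%, with overlapping intervals. Of the 40 p53 KO cells with TRBV1 and another J gene, 30 belonged to 1 clonotype. By p53 KO clonotypes, the TRBV1 shares were 7.69% with TRBJ1 and 6.13% with other J genes.

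TRBV19 (41178589 to 41179048) was the 1 gene of 22 whose TRBJ1 shares had intervals clear of each other between libraries. It was in 1 of 69 TRBJ1 clonotypes in WT (1.45%, 0.037 to 7.81) and in 12 of 78 in p53 KO (15.4%, 8.21 to 25.3), where it was the leading V partner. Among clonotypes with other J genes it was in 12 of 175 in WT (6.86%) and 7 of 163 in p53 KO (4.29%, 1.74 to 8.65), so the p53 KO intervals of TRBJ1 and other J genes overlapped narrowly. TRBJ1 thus made up 1 of 13 TRBV19 clonotypes in WT (7.69%, 0.195 to 36.0) and 12 of 19 in p53 KO (63.2%, 38.4 to 83.7). The single WT case was a TRBJ1-3 chain seen in 2 of the 6 cells of a clonotype whose cells all carried a TRBV17 and TRBJ2-2 chain. It was no longer counted when the contig with most UMIs was used (0 of 66 clonotypes). That setting also lowered the p53 KO count, to 8 of 69 TRBJ1 clonotypes (11.6%).

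The TRBV19 clonotypes with TRBJ1 in p53 KO were spread over several joins and held 1 TRBJ1 cell each, 12 in all. TRBJ1-4 was in 7 of them, through 6 distinct chains, TRBJ1-6 in 3 through 1 shared chain, and TRBJ1-3 and TRBJ1-5 in 1 each. Counted as distinct beta chains, TRBV19 was on 9 of 76 TRBJ1 chains in p53 KO (11.8%, 5.56 to 21.3) and on 1 of 70 in WT (1.43%, 0.036 to 7.70), and these intervals overlapped. By cells, TRBJ1 made up 10.0% of TRBV19 cells in WT and 25.5% in p53 KO, where TRBV19 clonotypes of 16 and 14 cells used TRBJ2-1. These clonotypes shared a beta chain, since no distinct chain was counted in 16 or 14 cells.

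**Figure D4:**
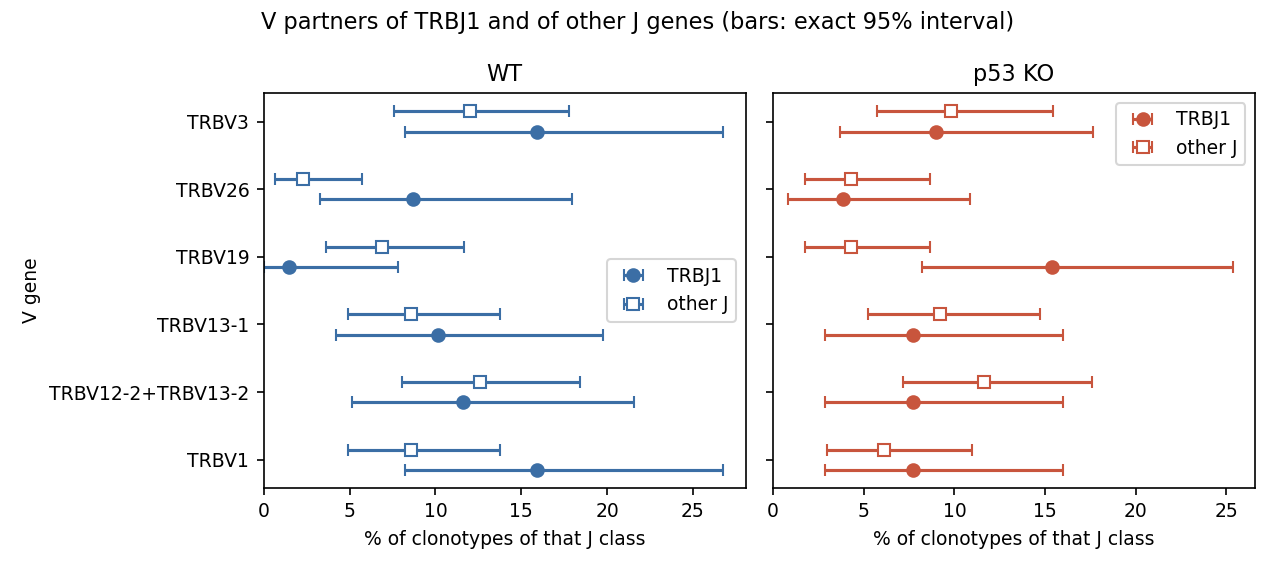
Share of TRBJ1 clonotypes (filled) and of other J clonotypes (open) that carried each leading TRBV gene, in percent, in WT (left) and p53 KO (right), with exact 95% intervals. TRBV19 is at 1.45% of TRBJ1 clonotypes in WT and 15.4% in p53 KO. Within each library, the TRBJ1 and other J intervals of every V gene shown overlap. Between libraries, only the TRBJ1 intervals of TRBV19 are clear of each other, and by distinct beta chains these overlap too.

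In WT, TRBJ1 clonotypes were expanded about as often as those of other J genes. The largest WT clonotype with a beta chain was a TRBJ1-1 clone of 7 cells. By distinct beta chains, the largest WT chain with another J gene also had 7 cells. In p53 KO, the largest TRBJ1 clone had 5 cells and the largest with another J gene 30. The size of a TRBJ1 clone is the number of cells of a clonotype in which a TRBJ1 contig was found. In WT, 13 of 69 TRBJ1 clonotypes had 2 or more such cells (18.8%, 10.4 to 30.1), and in p53 KO 8 of 78 (10.3%, 4.53 to 19.2). The shares with other J genes were 18.3% (32 of 175) and 16.6% (27 of 163). Of TRBJ1 cells, 34 of 90 in WT (37.8%) and 21 of 91 in p53 KO (23.1%) were in such clonotypes, against 98 of 241 (40.7%) and 136 of 272 cells with other J genes.

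Clonotypes of 5 or more cells were mostly of other J genes in both libraries. So were clonotypes of any size, 175 of 240 in WT and 163 of 230 in p53 KO. A single TRBJ1 clonotype had 5 or more cells in each library, with 7 cells in WT and 5 in p53 KO. They held 7.78% of TRBJ1 cells in WT and 5.49% in p53 KO. With other J genes, 5 WT clonotypes held 27 cells (11.2%), and 6 p53 KO clonotypes held 83 cells (30.5%). The largest of these p53 KO clonotypes had 30, 16, 14 and 10 cells. No interval is given for these shares of cells, since the cells of a clone are not independent. By distinct beta chains, 5 p53 KO chains with other J genes held 86 cells, the largest with 31, 30, 11 and 9. The clonotypes of 16 and 14 cells were thus not separate beta chains. Among clonotypes with a beta chain, the 3 largest in p53 KO contained no TRBJ1 cell among 60 cells. In the 3 largest of WT, 10 of 19 cells carried TRBJ1. The TRBJ1-1 clone held 7 of these cells. The others were 1 and 2 cells of clonotypes of 6 cells, all of which carried a TRBJ2-2 chain. Without the 3 largest clonotypes of each library, TRBJ1 took 31.3% of p53 KO cells in place of 25.9%, and the difference from WT turned to 5.21 points. TRBJ1-3 and TRBJ1-5 had no clonotype above 1 cell in p53 KO (0 of 11 and 0 of 9), and in WT they had 3 of 8 and 1 of 9, with overlapping intervals. By distinct beta chains, TRBJ1-5 had 1 of 7 in p53 KO and 1 of 9 in WT.

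**Figure D5:**
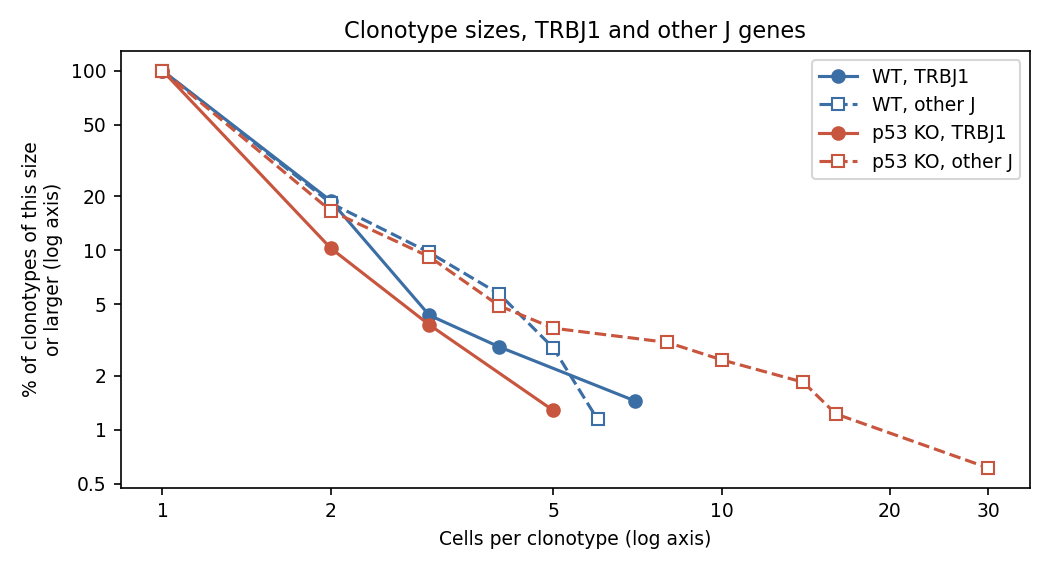
Percent of clonotypes that reach each size or more (cells per clonotype, both axes logarithmic) for TRBJ1 (filled) and other J genes (open), in WT and p53 KO. TRBJ1 lines end at 7 cells in WT and 5 cells in p53 KO, and the p53 KO line of other J genes runs to 30 cells.

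The junctions of the largest TRBJ1 clones are printed with the bases left by J in capitals, to show how much of each loop the J gene supplied. The first belongs to the 7-cell WT clone, the second to a 3-cell WT clone, and the others to p53 KO clones of 5, 3 and 3 cells.
TRBV1 and TRBJ1-1, WT: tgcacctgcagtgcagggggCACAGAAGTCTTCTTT
TRBV3 and TRBJ1-1, WT: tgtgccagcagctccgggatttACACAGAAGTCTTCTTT
TRBV5 and TRBJ1-1, p53 KO: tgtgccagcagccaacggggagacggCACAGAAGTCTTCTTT
TRBV10 and TRBJ1-4, p53 KO: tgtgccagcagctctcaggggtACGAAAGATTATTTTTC
TRBV10 and TRBJ1-1, p53 KO: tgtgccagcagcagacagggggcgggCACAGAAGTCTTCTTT
The WT TRBV1 loop, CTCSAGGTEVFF, had 12 residues and kept 16 of the 20 CDR3 bases of TRBJ1-1. It was paired with TRAV9-4 and TRAJ37 in the 3 of its 7 cells that had an alpha chain. The WT TRBV3 loop read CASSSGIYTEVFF and was paired with TRAV4D-4 and TRAJ28 in all 3 cells. In p53 KO, the TRBV5 loop read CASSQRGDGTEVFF and was paired with TRAV3D-3 and TRAJ7 in all 5 cells. The TRBV10 loops read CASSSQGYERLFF, where TRBJ1-4 had lost 6 bases, and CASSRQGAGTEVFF, where TRBJ1-1 had lost 4. A further WT clone, of 4 cells, joined TRBV3 to TRBJ1-5 and kept 21 of 22 J bases in a loop of 17 residues.

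No TRBJ1 CDR3 was shared between libraries, among 68 amino acid sequences in WT and 76 in p53 KO, and 1 was shared among chains with other J genes. The libraries shared no cell barcode. Within WT, 2 TRBJ1 loops were each encoded by 2 nucleotide sequences. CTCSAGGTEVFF of the 7-cell clone recurred in a second clonotype of 1 cell with the same V and J genes, and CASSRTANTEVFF occurred once with TRBV26 and once with TRBV3. The junctions of each pair are given with the J bases in capitals.
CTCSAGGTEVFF, 7 cells: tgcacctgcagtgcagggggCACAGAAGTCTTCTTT
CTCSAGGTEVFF, 1 cell: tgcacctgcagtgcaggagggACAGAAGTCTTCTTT
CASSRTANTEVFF, TRBV26: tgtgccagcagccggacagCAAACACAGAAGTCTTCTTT
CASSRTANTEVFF, TRBV3: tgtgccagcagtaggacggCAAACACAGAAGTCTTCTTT
The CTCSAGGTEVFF pair differed by G18A and C21G, counted from 1 at the first CDR3 base and from the 7-cell to the 1-cell sequence. Both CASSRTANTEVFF junctions kept all 20 CDR3 bases of TRBJ1-1.

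TRBJ1-5 was the 1 J gene of 12 with 2 framework 4 sequences. They differed by T18C, counted from 1 at the first framework 4 base, and both encode GEGTRLSVL. The differing base is the capital.
T form: ggagaggggactcgactTtctgttctag
C form: ggagaggggactcgactCtctgttctag
The T form was on 9 distinct beta chains (6 WT and 3 p53 KO, 14 cells) and the C form on 7 (3 WT and 4 p53 KO, 7 cells). Support was 2 to 13 UMIs per contig for the T form and 3 to 10 for the C form. Both TRBJ1-5 chains that were seen in 2 or more cells showed the T form in all of their cells. Each C form chain was seen in 1 cell, so its agreement between cells could not be checked. The source of the C form was not tested.

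TRBJ1 contigs held 589 UMIs from 2261548 reads in WT and 587 UMIs from 2890554 reads in p53 KO. The median was 5 UMIs in each, against medians of 4 and 6 for contigs with other J genes. An alpha chain was found in 82.2% of TRBJ1 cells in WT and 79.1% in p53 KO, and in 86.3% and 73.2% of cells with other J genes. Cells with 2 or more TRB contigs made up 10.0% of TRBJ1 cells in WT (9 of 90) and 16.5% in p53 KO (15 of 91), against 4.15% and 6.99% of cells with other J genes. The intervals overlapped in WT (4.68 to 18.1 and 2.01 to 7.50) and in p53 KO (9.53 to 25.7 and 4.26 to 10.7). Over all cells with a TRB contig the shares were 4.29% and 6.27%. With TRBJ2-2 alone they were 10.4% (5 of 48) and 4.65% (2 of 43). A cell with several TRB contigs has more than 1 chance to enter a J class. It can also count for both classes, as 5 WT and 12 p53 KO cells did. TRBJ1 and another J cluster gene were found together in 4 clonotypes in WT and 11 in p53 KO, and 3 clonotypes in each had 2 TRBJ1 genes.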

How the data were processed

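Paired 5′ gene expression and TCR libraries were made from whole MC38 tumours, and the TCR libraries (1 WT and 1 p53 KO) were analysed. For each, the authors deposited a list of filtered contigs with V, D, J and C genes, CDR3, cell barcode and clonotype. Per the file headers, reads and UMIs per contig are counts, used as deposited. Cell Ranger 6.1.1 and mm10 are named in the submitters' processing notes. No source used here gives the TCR reference's version.

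Shares were computed in Python 3.11.15 with pandas 2.3.3, and exact intervals with scipy 1.17.1. No germline J sequence was used. The J consensus was read from the right end of distinct junctions, and a base was kept where 3 or more junctions carried it and at least 2 times as many as the next base, a rule set after seeing the junctions. J bases left are the longest exact match to it. The matching was tested on simulated junctions. RefSeq names matched 33 of 34 V and J names.

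The named V genes are the 5 in most TRBJ1 clonotypes of each library, with ties by name, and the named clones are the 3 largest per library. TRBJ1 and these rules were chosen with earlier results of these data known. The read totals behind TRBJ1 were 2261548 (WT) and 2890554 (p53 KO).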

Additional observations from a re-analysis of the deposited data

How the results depend on the processing

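Values were recomputed by cells, by distinct beta chains, with 3 or more UMIs per contig, in paired cells, without cells with 2 or more TRB contigs, with the contig of most UMIs, without the 3 largest clonotypes, and with 1 mismatch allowed in the J match. Alternatives without TRBJ1-6, for clone sizes by beta chain and for bases before J were chosen after seeing the data. With the cell as the unit, the TRBJ1 share in p53 KO was 25.9% and the difference from WT -1.68 points. By cells, the difference was 1.08 points in paired cells and 5.21 points without the 3 largest clonotypes, where the p53 KO share was 31.3%. Other settings kept the direction but moved the difference by over 1.5 times. By cells it was -5.97 points with 3 or more UMIs, -3.04 with the contig of most UMIs, -2.86 without cells with several TRB contigs and -2.62 without TRBJ1-6. By clonotypes it was 1.24 points with 3 or more UMIs, 2.5 with the contig of most UMIs, 7.99 in paired cells and 3.30 without TRBJ1-6. The TRBV19 share of WT TRBJ1 clonotypes was 0% with the contig of most UMIs (0 of 66) and without cells with several TRB contigs (0 of 62). These 7 values aside, all 108 other recomputed main values and 142 values of single J and V genes kept their direction and stayed within their counting interval or 1 SD. For lengths and trimming, 1 SD between chains is wider than the TRBJ1 minus other J differences. That limit could hardly be crossed and says little about how stable these differences are. The TRBJ1 minus other J difference in bases before J ran from -1.84 to -1.01 in WT and from -2.18 to -1.60 in p53 KO, and that in CDR3 length from -0.46 to -0.11 and from -0.48 to -0.09 residues. The smallest difference of each range came with 3 or more UMIs per contig.

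The number of clonotypes limits the precision, most for TRBJ1-3, TRBJ1-5 and TRBJ1-6, with 7 to 11 clonotypes per library. Genotype and library cannot be told apart. No paired analysis was possible because each genotype has 1 TCR library.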

Other observations

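Some TRBJ1 beta chains were found in more than 1 clonotype, 3 of 70 distinct chains in WT and 4 of 76 in p53 KO, against 7 of 170 and 10 of 156 with other J genes. The chains found in most clonotypes were TRBV19 with TRBJ1-6 and TRBV13-1 with TRBJ1-5, each in 3 clonotypes and 3 cells of p53 KO. In each, 2 different alpha junctions were seen and 1 cell had no alpha chain. The TRBJ1-6 junction holds all 22 resolved CDR3 bases of its J gene, and the TRBJ1-5 junction lacks the first 2, as the capitals show.
TRBV19 and TRBJ1-6: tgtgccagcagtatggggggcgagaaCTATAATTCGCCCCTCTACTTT
TRBV13-1 and TRBJ1-5: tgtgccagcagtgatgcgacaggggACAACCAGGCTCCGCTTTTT

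In 5 clonotypes of 2 or more cells that held TRBJ1 together with a TRBJ2 gene, the TRBJ1 chain was seen in fewer cells than the TRBJ2 chain in 4. In WT, a 6-cell clonotype with TRBV12-2+TRBV13-2 and TRBJ2-2 had a TRBV20 and TRBJ1-1 chain in 1 cell. In p53 KO, a 4-cell clonotype with TRBV10 and TRBJ2-5 had a TRBJ1-3 chain and a TRBJ1-5 chain in 1 cell each. The 5-cell p53 KO clone with TRBV5 and TRBJ1-1 was the reverse case, with TRBV29 and TRBJ2-7 in 1 cell.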
